A study of Mus musculus with 18 samples.

Results

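The repeats described here are the DNA transposons outside the hAT superfamily: the Tigger, mariner, Tc1, Tc2 and pogo elements of the Tc1/mariner (TcMar) superfamily, the PiggyBac, Harbinger and Kolobok elements, and DNA elements that carry no finer class. They were taken by the class printed in each row name, which had to begin with DNA and not with DNA/hAT, a rule that uses no measured value. The rule found 136 of the 1365 repeat subfamilies. TcMar elements made up 77 of them, of which 53 were Tigger, 8 Tc2, 4 mariner, 4 Tc1 and 1 pogo, while 7 had no TcMar subclass. The other 59 were 53 rows with no class beyond DNA, 2 PiggyBac, 2 Harbinger, 1 Kolobok and Eutr16, whose class text, DNA?/hAT-Tip100?, is an uncertain hAT assignment that the rule takes in by its first letters. A question mark stood in the class of 32 rows. It follows the word DNA in all but Eulor8 and X22_DNA, so the label transposon is itself uncertain for those rows. In Eulor8 and X22_DNA, with the class DNA/TcMar?, the question mark stands on the superfamily only. The hAT elements, set beside them below, were 152 rows.

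DNA transposons move by a cut-and-paste mechanism, in which a transposase binds the inverted repeats at the ends of the element, excises it and inserts it elsewhere. In the mouse genome they are old, inactivated copies, so that a read from such a row usually reports transcription through a fixed copy, in an intron, an untranslated region or a long non-coding RNA, and not a mobile element at work. Tigger elements are relatives of the pogo transposon of flies, and the centromere protein CENP-B descends from a transposase of the same branch. Rows named Eulor or UCON are repeats recognised by their conservation over long evolutionary distances, and some of their copies have been retained in vertebrate genomes far longer than most transposon copies.

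RNA from 18 mouse libraries in 6 groups of 3 was sequenced after poly(A) selection. Embryonic stem cells (ESCs) of the 129S1/CASTEiJ background in 2i medium were left untreated or given 100 nM NVP-AUY922, which blocks the chaperone HSP90. Bone-marrow-derived macrophages of the BALBC/C57BL6 background, grown with M-CSF, received none or 500 nM. Neuronal progenitor cells (NPCs) of the 129S1/CASTEiJ background, grown with EGF and FGF, received none or 50 nM. Treatment lasted 24 h throughout, and cell type and dose change together, as does strain for macrophages. Labels do not say whether the 3 libraries of a group came from separate cultures or animals, so every p-value measures only the spread among these libraries, possibly a technical one. The data hold repeats and no genes, so the labelled cell types could not be checked against markers.

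Values come from a table of results per cell type, in which the authors compared the 3 treated and the 3 untreated libraries. The base mean is the mean number of normalised reads per library over all copies of a subfamily, so it grows with the number and length of the copies and is no level per copy. The log2 fold change is the difference between the groups, and its standard error (SE) follows after ±. Neither the numerator of the contrast nor a common orientation of the tables is stated, and values are therefore described by the side of 0 on which they fall, positive or negative. A subfamily is called here when its adjusted p in the authors' deposited table is under 0.05. In RNA from a culture, fewer cells of a type and less RNA per cell cannot be told apart.

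Few reads came from these elements. All 136 subfamilies together held 0.342% of the summed base mean in ESCs, while their share was 0.573% in macrophages and 0.706% in NPCs, against 1.22%, 2.29% and 2.84% for the 152 hAT rows. TcMar rows carried 93.2%, 91.3% and 94.5% of the members' sum in these cell types. The 5 top rows of each table, with MER2 first, supplied 51.0%, 52.7% and 56.3% of it. MER2, an element classed with Tigger, had base means of 3576, 3691 and 4961 in ESCs, macrophages and NPCs, in this order, per the authors' deposited tables. After it in ESCs came Tigger1, Tigger5b_Glire, Tigger17a and Tigger19b, with base means of 1296, 878, 477 and 468 per the authors' deposited table. The macrophage order was Tigger5b_Glire, Tigger19b, Tigger1 and MER46C, and the authors' deposited table gave them 779.8, 706, 495 and 333.5. In NPCs Tigger16a took the second place at 1037, ahead of Tigger5b_Glire at 987, Tigger17a at 679 and Tigger19b at 615 per the authors' deposited table.

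At the other end lay rows with almost no reads. A base mean under 10 was found for 48 of the 136 members in ESCs, for 63 in macrophages and for 61 in NPCs, and no reads at all for 2, 8 and 7. An adjusted p was given for 94 members in ESCs, for 117 in macrophages and for 114 in NPCs, and a p without adjustment for 40, 11 and 15. The lowest base mean of a tested member was 7.39 in the ESC table, 0.557 in that of macrophages and 1.68 in that of NPCs, so the tables reach down to unlike depths. Tests in all 3 tables exist for 91 members and in none for 13. Pogo elements are represented by MER132 alone, with base means of 0.319, 0.160 and 0, and it was not tested anywhere.

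Most tested members were not called, and those that were lay on either side. In ESCs 14 of 94 were called, 7 positive and 7 negative, a share of 14.9% against 22.2% of all 1132 tested rows. By side the background there was 10.2% positive and 12.0% negative, and the members' share was 7.45% on each. In macrophages 15 of 117 were called, 12 positive and 3 negative, which is 12.8% against 25.8% of all 1255 rows. The positive share of 10.3% compares with 13.3% of all rows and the negative share of 2.56% with 12.5%. In NPCs 9 of 114 were called, 5 positive and 4 negative, or 7.89% against 11.8% of 1249 rows, with 4.96% of all rows positive and 6.81% negative. All 3 shares thus stood below the background.

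Members also had fewer reads than the other rows. The median base mean of tested rows was 49.3 for members and 225 for all rows in ESCs, 18.3 and 101 in macrophages, and 28.3 and 128 in NPCs. Where the base mean was at least 50, the members' share was 14.9% in ESCs (7 of 47), 26.3% in macrophages (10 of 38) and 18.9% in NPCs (7 of 37). All such rows gave 26.0%, 36.3% and 15.3%. At this depth the NPC share lay above the background and the other two below it. The hAT rows were called at 7.52%, 21.1% and 16.1% of those tested. That is below the non-hAT share in ESCs and above it in macrophages and NPCs. Tested hAT rows also had more reads, with median base means of 74.3, 48.5 and 50.2. At a base mean of at least 50, 7.23% of hAT rows were called in ESCs, 30.1% in macrophages and 20% in NPCs. The order was the same there, but the members' 26.3% in macrophages and 18.9% in NPCs lay closer to the hAT shares. These differences were not tested. The median log2 fold change of tested members was -0.03, 0.07 and 0.04, beside medians of 0.00191, -0.01 and 8.902e-04 over all tested rows in ESCs, macrophages and NPCs.

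**Figure D1:**
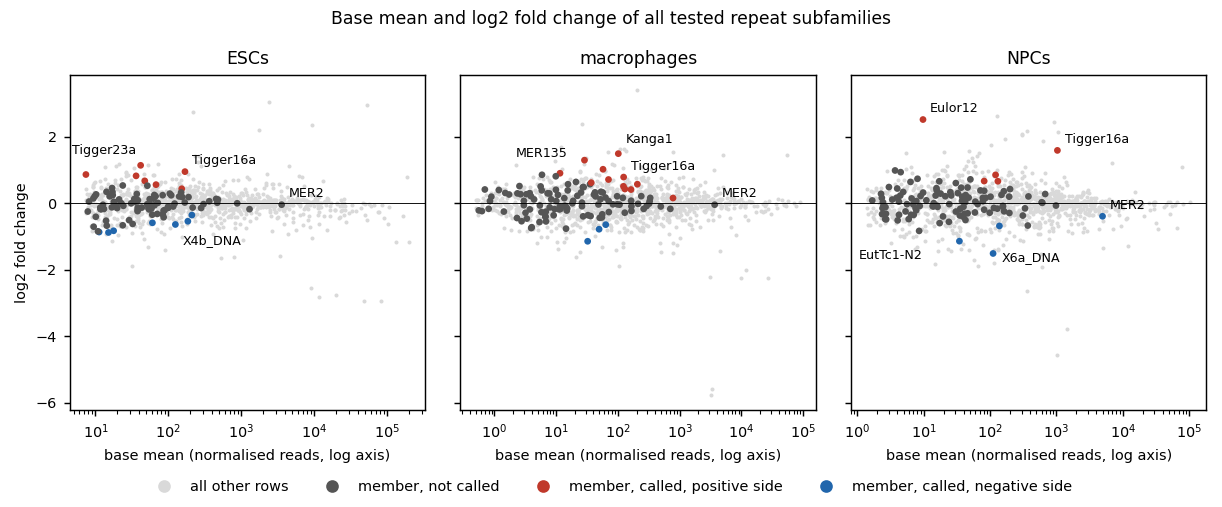
Base mean (normalised reads, log axis) against log2 fold change for each tested subfamily in ESCs, macrophages and NPCs. Non-hAT DNA transposons (dark, or red and blue where called) sit mostly at low base means and near 0, with Tigger16a on the positive side in all 3 panels and MER2 far to the right.

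Tigger16a was the only member called in all 3 tables, each time on the positive side. How many of all subfamilies were called in all 3 was not counted. In ESCs the authors' deposited table lists Tigger16a at 0.95 ± 0.16 with a base mean of 169 and an adjusted p of 8.67e-08, a 1.94-fold difference. Its macrophage entry in the authors' deposited table is 0.79 ± 0.15 at a base mean of 124, with an adjusted p of 2.11e-06 and a fold of 1.73. The NPC entry in the authors' deposited table is 1.59 ± 0.17 at a base mean of 1037, with an adjusted p of 6.75e-18 and a fold of 3.01. By the size of its Wald statistic, the fold change over its SE, Tigger16a ranked 9 of 1249 tested rows in NPCs, 62 of 1132 in ESCs and 95 of 1255 in macrophages. By base mean it stood at place 14 of the 136 members in ESCs, 19 in macrophages and 2 in NPCs. The 95% intervals were 0.63 to 1.27 in ESCs, 0.49 to 1.09 in macrophages and 1.25 to 1.93 in NPCs. Tigger16b, the row nearest in name, was called nowhere, with 0.25 ± 0.20, 0.49 ± 0.29 and 0.14 ± 0.32 per the authors' deposited tables.

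The other Tigger-class rows called in ESCs were split between the sides. Tigger23a had the largest value of any tested member in that table, 1.14 ± 0.27 at a base mean of 41.6 per the authors' deposited table (adjusted p 2.09e-04). Tigger17b at 0.83 ± 0.26 and Tigger14a at 0.68 ± 0.24 were the remaining positive calls per the authors' deposited table, the adjusted p being 0.00971 and 0.0268. On the negative side the authors' deposited table placed Tigger17d at -0.54 ± 0.15 (adjusted p 0.00362) and Tigger10 at -0.35 ± 0.14 (0.0456). The rows X6a_DNA and UCON55 followed at -0.58 ± 0.22 and -0.88 ± 0.32 per the authors' deposited table, the adjusted p being 0.0422 and 0.0328. Of the 48 Tigger-class rows tested in ESCs, 4 were thus positive, 4 negative and 40 not called, with a median of -0.00242. Their called share of 16.7% stood below the 22.2% of all rows. Tigger17b and Tigger17d, which share a number in their names, were called on opposite sides.

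In macrophages 8 Tigger-class rows were positive, 1 negative and 41 not called of 50, with a median of 0.07. Counting either side, the class was called at 18.0%, below the 25.8% of all rows. All rows were called at 13.3% on the positive side and 12.5% on the negative. Besides Tigger16a the positive rows, as the authors' deposited table lists them, were Tigger2b at 0.58 ± 0.12, Tigger6a at 0.72 ± 0.19 and Tigger20a at 0.62 ± 0.21. Their adjusted p-values were 3.35e-05, 0.00144 and 0.0129 per the authors' deposited table. MamRep434 at 0.51 ± 0.17, Tigger9b at 0.43 ± 0.13 and X12_DNA at 0.41 ± 0.11 came next per the authors' deposited table, the adjusted p being 0.0113, 0.00665 and 0.00194. Tigger5b_Glire lay at 0.16 ± 0.06 with a base mean of 779.8 and an adjusted p of 0.0488 per the authors' deposited table, a 1.12-fold difference. The single negative call was X26_DNA at -1.14 ± 0.30, base mean 32.3, adjusted p 0.00107, per the authors' deposited table.

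In NPCs 3 Tigger-class rows were positive, 2 negative and 45 not called of 50, and the median was 0.04. That is 10.0% called, near the 11.8% of all rows. X6a_DNA had the most negative value of any member in this study, -1.51 ± 0.25 with a base mean of 111 and an adjusted p of 1.35e-07 per the authors' deposited table, a 2.84-fold difference. Its companion row X6b_DNA was at -0.08 ± 0.41 with a base mean of 8.7 per the authors' deposited table and was not called. Tigger17 at 0.86 ± 0.25 and Tigger18a at 0.67 ± 0.22 joined Tigger16a on the positive side per the authors' deposited table, the adjusted p being 0.00701 and 0.0294. MER2, the row with most reads, was called at -0.39 ± 0.11 and an adjusted p of 0.00894 per the authors' deposited table. Its ESC and macrophage values were -0.04 ± 0.07 and -0.04 ± 0.06 per the authors' deposited tables, with 95% intervals of -0.17 to 0.09 and -0.16 to 0.08. Tested directly, the ESC value of MER2 minus that in NPCs was 0.35 ± 0.13 and the macrophage value minus that in NPCs 0.35 ± 0.13, and neither passed, with adjusted p of 0.0626 and 0.0598.

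Rows whose name starts with Tigger can be set beside the Tigger-class rows with other names, such as MER2, MamRep434 and the X-numbered DNA rows. Of the 34 Tigger-named rows, 4 were positive and 2 negative of 32 tested in ESCs. The authors' DESeq2 test called 6 positive and 0 negative of 33 in macrophages, and 3 positive and 0 negative of 33 in NPCs. At an unadjusted p under 0.05 the negative counts were 2 in macrophages and 1 in NPCs. The 19 others gave 0 positive and 2 negative of 16 in ESCs, 2 and 1 of 17 in macrophages, and 0 and 2 of 17 in NPCs, with 1 positive at an unadjusted p under 0.05 in ESCs and 1 in NPCs. Counting either side, the Tigger-named rows were called at 18.8%, 18.2% and 9.09% in ESCs, macrophages and NPCs and the others at 12.5%, 17.6% and 11.8%. Each was at or below the share of all rows (22.2%, 25.8% and 11.8%). By side, all rows were called positive at 10.2%, 13.3% and 4.96% and negative at 12.0%, 12.5% and 6.81%. The positive counts of Tigger-named rows, 4 of 32, 6 of 33 and 3 of 33, lay above these positive shares. Their negative counts, 2, 0 and 0, lay below the negative shares. This division by name was not tested, and the counts are small.

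**Figure D2:**
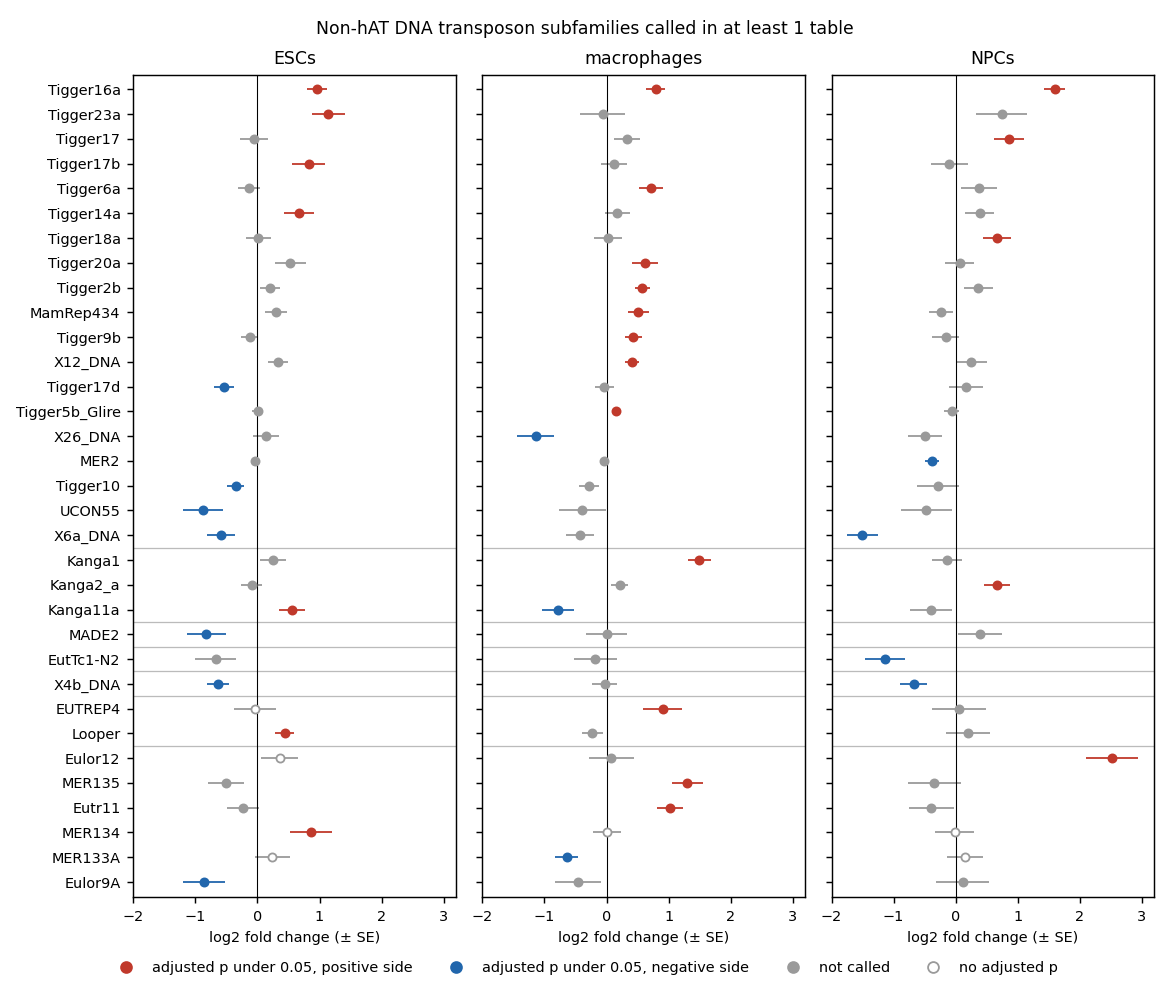
Log2 fold change with its SE (horizontal bars) in ESCs, macrophages and NPCs for the 33 subfamilies called in at least 1 table, grouped by class between the grey lines. Tigger16a at the top is red in every panel, Kanga11a is red in ESCs and blue in macrophages, and the other rows are mostly coloured in a single panel. How often calls of all subfamilies fell in a single table was not counted, so this is not shown to be particular to these elements.

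The Tc2 elements, all but one named Kanga, were measured in every table, with 8 of 8 rows tested, and gave the strongest macrophage result of the members. Kanga1 lay at 1.49 ± 0.19 in macrophages, with a base mean of 101 and an adjusted p of 9.20e-14 per the authors' deposited table, a 2.82-fold difference and place 9 from the positive end of 1255 tested rows. In ESCs and NPCs the authors' deposited tables put Kanga1 at 0.25 ± 0.21 and -0.14 ± 0.24, neither called. Its lettered relatives did not share the macrophage call. There the authors' deposited table has Kanga1a at 0.26 ± 0.33, Kanga1b at 0.41 ± 0.34, Kanga1c at -0.43 ± 0.19 and Kanga1d at 0.81 ± 0.34. Their base means, 10.7, 9.9, 50.7 and 9.8 per the authors' deposited table, were lower than that of Kanga1. For Kanga1a, Kanga1b and Kanga1d, all positive, a missing call at so few reads does not show a difference from Kanga1. Kanga1d, with an adjusted p of 0.0579 per the authors' deposited table, was the macrophage member nearest to the threshold among those not called.

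Kanga11a was called on opposite sides in a pair of tables. In ESCs it was at 0.56 ± 0.21 (adjusted p 0.0341, base mean 67.6), and in macrophages at -0.78 ± 0.26 (0.0127, base mean 49.5), per the authors' deposited tables. Kanga2_a was called in NPCs, at 0.66 ± 0.21 with an adjusted p of 0.0172 and a base mean of 131 per the authors' deposited table. MER104, the Tc2 row of another name, was called in none, at -0.20 ± 0.20, -0.33 ± 0.21 and 0.04 ± 0.36 in ESCs, macrophages and NPCs per the authors' deposited tables. Medians of the class were -0.05, 0.23 and -0.03 in that order.

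Mariner elements gave a single call, in a row with few reads. It was 1 of 3 tested in ESCs (33.3%, against 22.2% of all rows), too few for the share to be read. MADE2 lay at -0.82 ± 0.32 in ESCs, with a base mean of 17.7 and an adjusted p of 0.0435 per the authors' deposited table. MMAR1, which had the highest base mean of the mariner rows in ESCs and came after MARNA in macrophages and NPCs, lay at 0.13 ± 0.11, 0.22 ± 0.10 and 0.20 ± 0.20 in ESCs, macrophages and NPCs per the authors' deposited tables. The 95% interval of MMAR1 reached from -0.08 to 0.35 in ESCs, 0.03 to 0.40 in macrophages and -0.20 to 0.60 in NPCs. MARNA was the NPC member nearest to the threshold among those not called, with -0.67 ± 0.24 and an adjusted p of 0.0515 per the authors' deposited table. The other two tables gave MARNA 0.19 ± 0.15 and -0.08 ± 0.11 in the authors' deposited values for ESCs and macrophages.

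Among the Tc1 rows, EutTc1-N2 was called in NPCs at -1.14 ± 0.32, with a base mean of 34.6 and an adjusted p of 0.00637 per the authors' deposited table. In ESCs and macrophages the authors' deposited tables had EutTc1-N2 at -0.67 ± 0.33 and -0.18 ± 0.35, on the same side and not called. EutTc1-N1 was not called anywhere, at 0.25 ± 0.32, -0.09 ± 0.33 and -0.08 ± 0.40 per the authors' deposited tables. X32_DNA, the Tc1 row with the highest base mean in ESCs and NPCs and a lower one than either EutTc1 row in macrophages, was at -0.18 ± 0.23, 0.12 ± 0.35 and -0.27 ± 0.29 per the authors' deposited tables.

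X4b_DNA, a TcMar row without subclass, was called in ESCs and in NPCs, on the negative side and at almost the same value. The authors' deposited tables gave it -0.63 ± 0.17 in ESCs (adjusted p 0.00165, base mean 125) and -0.68 ± 0.22 in NPCs (0.0191, base mean 139). In macrophages it lay at -0.03 ± 0.20 with a base mean of 97.4 per the authors' deposited table. X4a_DNA, the row beside it by name, had base means of 9.8, 3.3 and 4.2 per the authors' deposited tables and was not called.

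Outside TcMar the PiggyBac rows gave 1 call each. With 1 row tested in ESCs and 2 in macrophages, no share can be read from them. Looper lay at 0.44 ± 0.16 in ESCs (base mean 152, adjusted p 0.0267) per the authors' deposited table, and at -0.23 ± 0.17 and 0.20 ± 0.35 in macrophages and NPCs. EUTREP4, whose PiggyBac class carries a question mark, lay at 0.91 ± 0.32 in macrophages with a base mean of 11.5 and an adjusted p of 0.0206 per the authors' deposited table. Neither Harbinger row nor the Kolobok row was called. Chompy-7_Croc, the Harbinger row with more reads, lay at -0.13 ± 0.25, 0.33 ± 0.25 and -0.02 ± 0.37 in ESCs, macrophages and NPCs per the authors' deposited tables. UCON29, the Kolobok row, was at -0.19 ± 0.25, -0.17 ± 0.14 and -0.16 ± 0.36 per the authors' deposited tables, whose base means for it, normalised separately in each, were 38.0, 261 and 35.6. Eutr16, the uncertain hAT row, lay at 0.46 ± 0.32, 0.22 ± 0.37 and -0.59 ± 0.37 per the authors' deposited tables and was not called.

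The 53 rows with no class beyond DNA hold few reads and gave few calls, but these included the largest value of all members. Tested were 22 in ESCs, 40 in macrophages and 37 in NPCs, of which 9.09%, 7.5% and 2.70% were called. Among all tested rows the shares were 22.2%, 25.8% and 11.8%. This was Eulor12, whose class carries a question mark. Eulor12 lay at 2.52 ± 0.42 in NPCs, with an adjusted p of 1.52e-07 per the authors' deposited table, a 5.73-fold difference at a base mean of only 9.8. Its 95% interval was 1.69 to 3.35, and it stood second from the positive end of 1249 tested rows. The table holds no values per library, so the spread behind this difference is known only through its SE. In ESCs and macrophages Eulor12 was at 0.36 ± 0.30 and 0.08 ± 0.36 per the authors' deposited tables, at base means of 2.9 and 3.0.

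In macrophages MER135 and Eutr11 were positive, at 1.30 ± 0.25 and 1.03 ± 0.21 with adjusted p of 1.91e-06 and 7.89e-06 per the authors' deposited table. Their base means there were 28.7 and 57.3 per the authors' deposited table. Both lay below 0 in the other tables, MER135 at -0.51 ± 0.28 and -0.34 ± 0.42 and Eutr11 at -0.23 ± 0.25 and -0.39 ± 0.36 per the authors' deposited tables for ESCs and NPCs. MER133A, whose class carries a question mark, was the negative call in macrophages, at -0.64 ± 0.19 per the authors' deposited table. Its base mean there was 63.5 and its adjusted p 0.00447 per the authors' deposited table. MER133A was not tested in the other two tables, where its base means, normalised separately, were 2.0 for ESCs and 0.87 for NPCs per the authors' deposited tables. In ESCs the calls were MER134, also with a question mark in its class, at 0.87 ± 0.34, and Eulor9A at -0.86 ± 0.34. They had base means of 7.4 and 11.2 and adjusted p of 0.0474 and 0.0462 per the authors' deposited table. These ESC values lie just inside the threshold, as do those of MADE2 and Tigger10. Adjusted over all rows with a p, the 4 had adjusted p of 0.0559 (MER134), 0.0545 (Eulor9A), 0.0513 (MADE2) and 0.0538 (Tigger10) and were no longer called, like Tigger5b_Glire in macrophages at 0.0508. UCON97, at -0.84 ± 0.34 and an adjusted p of 0.0545 per the authors' deposited table, lies just outside. MER131, the row with the highest base mean of this class in ESCs and NPCs though not in macrophages, was at 0.24 ± 0.17, 0.33 ± 0.25 and 0.43 ± 0.25 per the authors' deposited tables and was called in none.

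**Figure D3:**
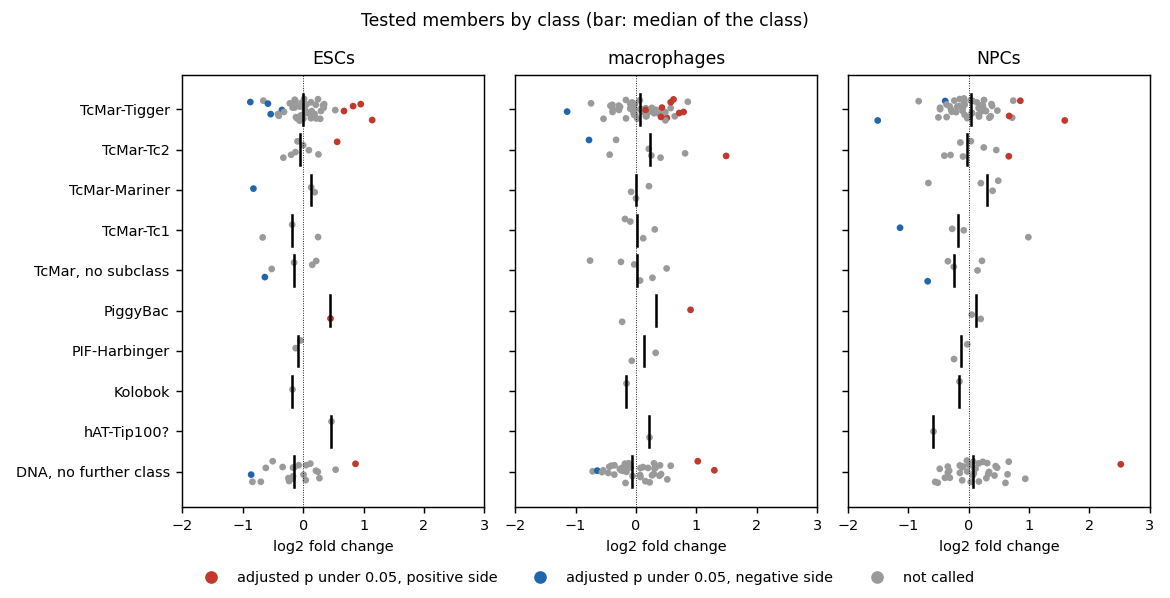
Log2 fold change of each tested subfamily, by class, in ESCs, macrophages and NPCs, with a bar at the median of the class and colours for rows called on the positive (red) or negative (blue) side. Medians lie near 0 in the classes with many rows, such as -0.00242, 0.07 and 0.04 for Tigger, and called rows are found on either side.

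The SE tells how large a difference the uncalled rows with many reads still allow. It is no such bound in rows with few reads, where it can fall with the reads. In macrophages UCON97, at a base mean of 0.557, had an SE of 0.21 per the authors' deposited table. The median SE of tested members there with a base mean under 10 was 0.36. The median SE of tested members was 0.24 for ESCs, 0.29 for macrophages and 0.35 for NPCs, so that a 95% interval reached 0.48, 0.56 and 0.69 on the log2 scale to either side. The whole interval lay within 0.5 of 0 for 20 of 94 members in ESCs, 20 of 117 in macrophages and 4 of 114 in NPCs. For members with a base mean of at least 200 this held for 10 of 11, 11 of 12 and 3 of 11. Among those with a base mean under 10 it held for 0 of 6, 0 of 44 and 0 of 39. A missing call in a row with few reads therefore does not show that its RNA was alike in the groups. In absolute value, the smallest called difference was 0.35 for ESCs, 0.16 for macrophages and 0.39 for NPCs.

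Differences between cell types in the log2 fold change passed the test for few members. The difference of log2 fold changes was tested per subfamily, two-sided, with a normal approximation, the SE of a difference being the square root of the summed squared SEs, and Benjamini-Hochberg adjustment over all subfamilies tested in a pair of tables. Between ESCs and macrophages 10 of 92 members differed (10.9%), against 23.7% of all subfamilies. Between ESCs and NPCs it was 3 of 91 (3.30%) against 12.6%, and between macrophages and NPCs 7 of 110 (6.36%) against 12.4%. Members had fewer reads than the other rows, and no share at a matched base mean was computed for these differences. The lower shares therefore do not show that members were more alike between cell types than other subfamilies. These tests take the tables as oriented alike. If the sign of 1 table is turned, 18, 7 and 14 members differ in these pairs (19.6%, 7.69% and 12.7%), against 27.9%, 16.2% and 19.9% of all subfamilies. Few members pass the threshold either way. These are Kanga1 and X26_DNA between ESCs and macrophages (2 of 10) and X6a_DNA between ESCs and NPCs (1 of 3). Between macrophages and NPCs they are Eulor12, Kanga1, Tigger16a and X6a_DNA (4 of 7). What holds either way for them is that the values were unlike in absolute size. The sign and size of each difference printed here take the tables as oriented alike. The calls of the other members rest on a common orientation altogether.

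Kanga1 stood apart in macrophages, with a difference of -1.24 ± 0.28 as ESCs minus macrophages (adjusted p 1.45e-04) and of 1.63 ± 0.30 as macrophages minus NPCs (4.49e-06). MER135 and Eutr11 likewise differed in macrophages from the other two cell types, but only if the tables are oriented alike. Macrophages minus NPCs gave 1.64 ± 0.49 for MER135 and 1.42 ± 0.42 for Eutr11, with adjusted p of 0.0108 and 0.00962. X6a_DNA stood apart in NPCs: the value in ESCs minus that in NPCs was 0.92 ± 0.34 (adjusted p 0.0482), and in macrophages minus NPCs 1.08 ± 0.34 (0.0156). With tables oriented alike, Tigger16a was lower on the contrast in macrophages than in NPCs, the difference being -0.80 ± 0.23 (adjusted p 0.00723). Its ESC value differed from that in NPCs by -0.64 ± 0.24, which missed the threshold (adjusted p 0.0557), and from that in macrophages by 0.16 ± 0.22 with a 95% interval from -0.27 to 0.60 (adjusted p 0.671). For X4b_DNA the ESC and NPC values differed by 0.04 ± 0.27, with an interval from -0.49 to 0.58 that does not exclude a sizeable difference.

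**Figure D4:**
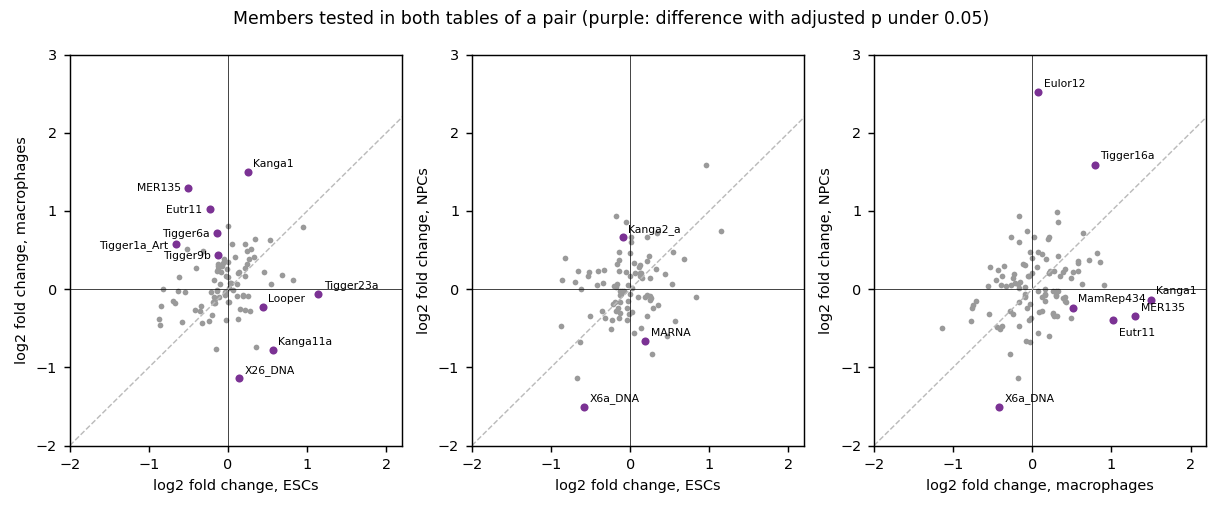
Log2 fold change of each member in a pair of cell types, for members tested in both, with equal values on the dashed line and purple points where the difference passed an adjusted p of 0.05. Kanga1, MER135 and Eutr11 lie off the line toward macrophages in the left and right panels, and X6a_DNA off it toward NPCs in the middle and right panels.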

How the data were processed

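Per the labels' protocols, poly(A) RNA was read from both ends in stranded libraries. The submitters' processing notes name build mm10 and, without roles, DESeq2, featureCounts, TopHat2 2.0.13, Bowtie2, deepTools and Trim Galore. No source used here gives the treatment of strand or of reads that fit several copies. Near-identical subfamilies, and genes holding a copy, can thus share reads with a row. Per the file headers, the files hold DESeq2 results. The base mean is a signal that the authors computed as normalised reads. The log2 fold change and its SE are on the log2 scale, as the authors deposited them. A score, the Wald statistic, was deposited too and equalled their ratio in all 1345, 1306 and 1326 rows with one. P-values and adjusted p-values are the authors', and within a relative tolerance of 1e-06 all 1132, 1255 and 1249 adjusted values matched a Benjamini-Hochberg adjustment. Rows with a base mean under 1 had absolute log2 fold changes of at most 0.25, 0.42 and 0.37. Their SEs could be small too. In ESCs Tigger1a_Mars, at a base mean of 0.251, had 0.12 per the authors' deposited table, while tested members reached 0.34. Values and SEs of rows with few reads may thus be shrunken towards 0. The folds, intervals and difference tests given here use them as deposited.

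The planned branch for tables of results, with no values per library, was used. Computed here were counts, folds, 95% normal intervals and differences between cell types, with Python 3.11.15, pandas 2.3.3 and scipy 1.17.1. The difference test was tried on simulated data with normal noise of the very SEs that the test assumes. That checks its computation and not how well it suits the deposited values. The depth of each library is unknown here. The tables were normalised separately, so base means printed side by side for several cell types are no test of a difference in level. Named are all called members, the 5 with the highest base means per table, the top row of each class of at least 2 rows by the mean rank of its base mean in the tables, Tigger16a, Kanga1 and X6a_DNA, members differing between cell types, and those nearest the threshold; other rows named as relatives of these were chosen after their values were seen. The class rule uses no measured value, but it and the lists were set with earlier results of these data known.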

Additional observations from a re-analysis of the deposited data

Results flagged for a closer look

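Members whose log2 fold change differed between a pair of cell types at an adjusted p under 0.05 deserve a closer look. The list takes the tables as oriented alike, which no source states, and the signs and sizes below rest on this. With the sign of 1 table turned, 2 of 10 members still differed between ESCs and macrophages (Kanga1 and X26_DNA), 1 of 3 between ESCs and NPCs (X6a_DNA) and 4 of 7 between macrophages and NPCs (Eulor12, Kanga1, Tigger16a and X6a_DNA). As ESCs minus macrophages the differences were 1.34 for Kanga11a, 1.28 for X26_DNA, 1.21 for Tigger23a and 0.667 for Looper. On the other side of that pair were MER135 at -1.80, Eutr11 at -1.26, Kanga1 at -1.24, Tigger1a_Art at -1.24, Tigger6a at -0.853 and Tigger9b at -0.557. Tigger1a_Art was called in neither table. It lay at -0.66 ± 0.29 in ESCs and 0.58 ± 0.32 in macrophages in the authors' deposited tables, and the adjusted p of the difference was 0.0205.

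As ESCs minus NPCs the differences were 0.922 for X6a_DNA, 0.856 for MARNA and -0.759 for Kanga2_a, with adjusted p of 0.0482, 0.0262 and 0.0411. MARNA, too, was called in neither table of this pair. As macrophages minus NPCs they were 1.64 for MER135, 1.63 for Kanga1, 1.42 for Eutr11, 1.08 for X6a_DNA, 0.7498 for MamRep434, -0.802 for Tigger16a and -2.44 for Eulor12. Cell type, dose and, for macrophages, strain cannot be told apart in these differences.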

How the results depend on the processing

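No paired analysis was possible because the tables hold a comparison and no values per library; leaving out a replicate was not run for the same reason. The ESC count of 14 called members of 94 tested was 7 of 47 where only base means of at least 50 entered. It was 5 of 94 at an adjusted p under 0.01. The other alternatives for ESCs, and all those run for macrophages and NPCs, stayed within 1.5 times the count. With adjustment over all rows with a p, 33 of 38 calls were kept. The 5 lost were Eulor9A, MADE2, MER134 and Tigger10 in ESCs and Tigger5b_Glire in macrophages. All 38 were kept with centring, and all 24 at a base mean of at least 50. Members differing between ESCs and macrophages numbered 18 with 1 sign turned, 4 at a base mean of at least 50 in both tables and 6 at an adjusted p under 0.01, against 10. For ESCs and NPCs these were 7, 5 and 0, against 3. For macrophages and NPCs they were 14 with 1 sign turned and 4 at the stricter threshold, against 7. The causes were not tested, beyond the fewer rows or stricter threshold. Except with 1 sign turned, no share of all subfamilies was computed at these settings. The other counts are therefore not set against a background. Medians moved by less than the median SE of a single member. All of them lay near 0, so a move of that size could hardly occur, and the comparison says little. The NPC median changed side, from 0.04 to -0.02, without classes bearing a question mark.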
